A study of Rattus norvegicus with 5 samples.

Results

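Interleukin-6 (*Il6*) and leukemia inhibitory factor (*Lif*) are cytokines of the senescence-associated secretory phenotype (SASP), the set of factors that senescent cells release. Their signals were examined in rat tendon stem/progenitor cells (rTSPCs), the precursors of tenocytes, on Affymetrix arrays. The probe sets were chosen by the gene symbol of the platform annotation. Each gene had 1 probe set, so the pair made up 2 of 7235 named genes and 2 of 10141 probe sets, of which 7240 carried a symbol. POG-treated rTSPCs (2 arrays) had received 20 μmol/L prim-O-glucosylcimifugin (POG), a chromone of Saposhnikovia root, at every passage between P3 and P12. DMSO-treated rTSPCs (3 arrays) had received the same amount of the solvent, dimethyl sulfoxide (DMSO), over the same passages. Both groups descended from Achilles tendon cells of 3-month-old male Sprague-Dawley rats and were harvested at P12. Arrays of a group are labelled as biological replicates, with no separate cultures or animals named. The p-values therefore cover the spread among the 5 arrays alone, and this spread may be technical. RNA was measured, not the secreted proteins.

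IL-6 and LIF belong to one cytokine family, whose members signal through a receptor subunit encoded by *Il6st*. IL-6 pairs it with its own receptor, encoded by *Il6r*, and LIF with the LIF receptor, encoded by *Lifr*. The receptors activate JAK kinases and the transcription factor STAT3, which induces its own inhibitor, *Socs3*. In senescent fibroblasts IL-6 is a widely used SASP marker, and LIF is best known for keeping mouse embryonic stem cells undifferentiated.

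*Il6* transcription is known, from human and mouse work, to be driven by NF-kB, C/EBP, CREB and AP-1 factors, whose own signals are described further on. The 250 bases before the RefSeq start of rat *Il6* (chr4:5894576-5894825, minus strand, GRCr8) are shown for that reason, 5′ to 3′, with matches to 3 of the 6 motifs searched in capitals.
Il6 promoter: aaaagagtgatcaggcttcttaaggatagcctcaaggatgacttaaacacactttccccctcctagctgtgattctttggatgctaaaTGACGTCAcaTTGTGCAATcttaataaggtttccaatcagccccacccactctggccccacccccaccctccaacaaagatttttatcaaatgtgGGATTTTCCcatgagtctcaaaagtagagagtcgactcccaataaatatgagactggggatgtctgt
The capitals mark, in this order, the CRE motif bound by CREB and ATF factors (TGACGTCA, 155 to 162 bases before the start), a C/EBP motif (TTGNGCAAT, 144 to 152 bases before it) and a kappaB motif (GGANTTTCC, 59 to 67 bases before it). These do not overlap. On either strand, the CRE motif was held by 1.59%, the C/EBP motif by 0.532% and the kappaB motif by 1.08% of all 33469 rat promoter windows of this length. The kappaB form was set after a longer form had been seen to match in *Il6*. Its match was thus known in advance, and its share is no test of rarity. The AP-1 motif TGANTCA, the STAT motif TTCNNNGAA and the TATA motif TATAAA had no match in this window, against 6.34%, 7.67% and 12.9% of all windows. A match is a description of the letters and not evidence of binding. Of the pair, *Il6* was matched in the promoter table and *Lif* was not.

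*Lif* was far lower in POG-treated than in DMSO-treated rTSPCs, whereas *Il6* did not pass the test. The *Lif* signal was 5.72 and 5.99 on the POG arrays, against 9.40, 11.04 and 9.91 on the DMSO arrays (log2 RMA signal). The groups did not overlap, and every DMSO array lay more than 3 log2 units above both POG arrays. Groups that did not overlap at all, by any margin, with POG below, were found for 28.5% of all probe sets. The means were 5.855 ± 0.19 with POG and 10.12 ± 0.84 with DMSO (SD, n = 2 and 3). *Lif* fell by 4.26 ± 0.39 (SE) on the log2 scale, with a 95% interval of -5.12 to -3.40 (limma adjusted p = 1.80e-05), or 19.2-fold on the RMA scale. By the same test 19.6% of all probe sets were lower in POG-treated cells. The *Lif* mean with POG was under 6.17, the lower quartile of all signals on these arrays, and no detection calls were used, so a signal this low may be background and the size of the fall understated.

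The *Il6* signal was 9.22 and 9.43 on the POG arrays, against 8.73, 9.03 and 9.04 on the DMSO arrays. Both POG arrays lay above all DMSO arrays, as they did for 38.3% of all probe sets. The means were 9.325 ± 0.15 with POG and 8.93 ± 0.18 with DMSO (SD, n = 2 and 3). The difference was 0.39 ± 0.18 (SE), or 1.31-fold, with a 95% interval of -0.015 to 0.80 (limma adjusted p = 0.103, unadjusted p = 0.0575). The interval holds no difference as well as a rise of up to 0.80 on the log2 scale, and at its lower bound a fall of 0.015. At the thresholds that the methods give, a fold change over 1.5 and an unadjusted p under 0.05, *Lif* passed and *Il6* did not, also with the methods' t-test.

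**Figure D1:**
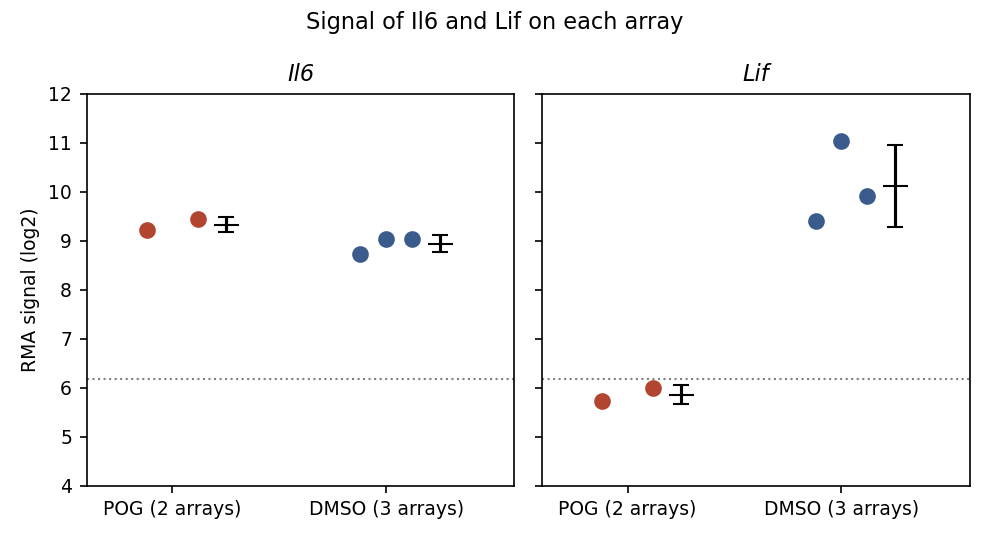
Log2 RMA signal of *Il6* (left) and *Lif* (right) on the 2 POG arrays (red) and the 3 DMSO arrays (blue). Each point is an array, black marks give the mean and the SD, and the dotted line is the lower quartile of all signals, 6.17. The POG arrays sit at 5.72 and 5.99 for *Lif*, below the line, while the *Il6* points of both groups lie between 8.73 and 9.43.

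The changes of both cytokines were then set against each other. The *Lif* change minus the *Il6* change was -4.65 on the log2 scale, taken within each array so that the scaling of an array cancels. The exact permutation test over the 5 arrays gave p = 0.1 (two-sided), the smallest p that 10 splits into 2 and 3 arrays allow, so this design cannot reach 0.05. The exact permutation test gave p = 0.1 for *Il6* and for *Lif* alone as well.

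Many probe sets changed in this comparison. With limma 46.3% of the 10141 probe sets passed (2707 higher in POG-treated cells, 26.7%, and 1987 lower), and the groups did not overlap for 66.8%. A call or a gap between groups was therefore common here. Ranked by change, *Lif* was number 31 from the lowest end of all probe sets, a rank that depends on a POG signal near the low end of the scale. *Il6* ranked 5999 of 10141 by the size of its change in either direction. The median change over all probe sets was 0.11.

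**Figure D2:**
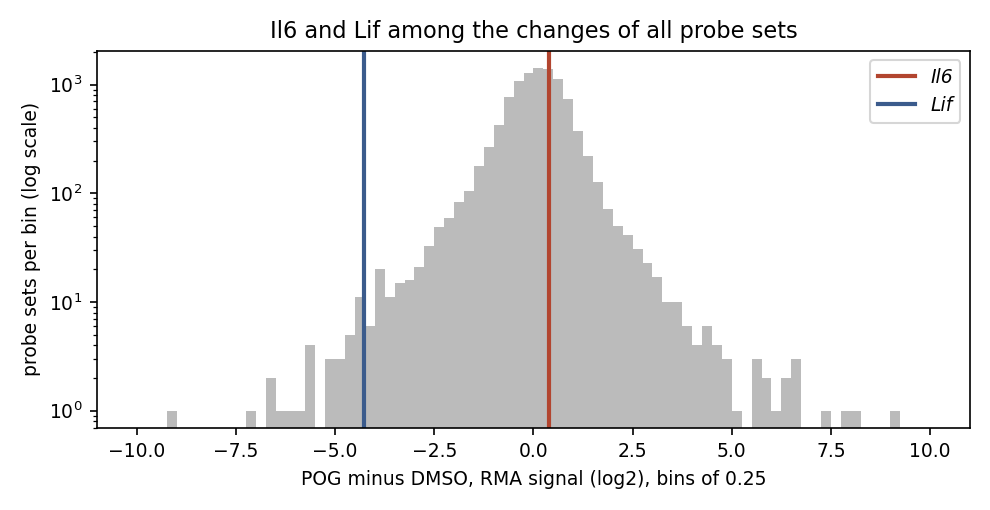
Histogram of the change of all 10141 probe sets (x axis, POG minus DMSO, log2 RMA signal, bins of 0.25; y axis, probe sets per bin, log scale), with *Il6* (red line) and *Lif* (blue line). *Il6* at 0.39 stands in the central peak and *Lif* at -4.26 in the sparse lower tail.

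The genes whose pattern was most like each cytokine were found from the root mean square difference over the 5 arrays, after each gene was set to a mean of 0. This measure is a description over 5 arrays and 7234 other genes. For *Lif* the nearest were *Noct* (0.365), a circadian phosphatase, the sorting receptor *Sort1* (0.423), the calcium pump *Atp2b4* (0.432), *Fhl5* (0.443) and the matrix protein *Smoc1* (0.457). *Noct* had 5.15 and 5.12 on the POG arrays, against 8.61, 9.49 and 8.56 on the DMSO arrays, with the highest signal on DMSO replicate 2 as for *Lif*. For *Il6* the nearest were *Fli1* (0.0256), *Mrpl51* (0.0273), *Spcs2* (0.0293), *Mrpl34* (0.0301) and *Cuta* (0.0312). Within 0.25 of *Il6* lay 2147 of the 7234 genes, and within 0.25 of *Lif* 0. Small distances to *Il6* were thus common and do not single these genes out.

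Of 12 ligands of the IL-6 family 3 had a named probe set, *Il6*, *Lif* and *Il11*. The others, among them *Osm*, *Cntf*, *Ctf1* and *Clcf1*, had none and were not analysed here. *Il11*, a cytokine of fibroblasts, had 5.51 and 5.05 with POG, against 6.22, 5.48 and 5.97 with DMSO. Its groups overlapped, and at -0.61 ± 0.24 it did not pass (adjusted p = 0.063). It passed without DMSO replicate 2 (-0.815, adjusted p = 0.0239) and after quantile normalization or centring of each array on its median (adjusted p = 0.0391 and 0.0469; range over its alternatives 0.0239 to 0.372).

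Receptor genes of the family moved the opposite way to *Lif*. All 4 measured of 8 listed were higher in POG-treated cells, with a median change of 1.53, against 26.7% higher and a median of 0.11 over all probe sets. *Il6st*, the signalling subunit that IL-6 and LIF share, had 15.24 and 15.25 on the POG arrays, against 13.09, 13.15 and 13.21 on the DMSO arrays. *Osmr*, the oncostatin M receptor subunit, had 14.06 and 13.97 with POG, against 10.69, 10.60 and 10.49 with DMSO. Neither gene's groups overlapped, and the arrays within a group lay close together. *Il6st* rose by 2.10 ± 0.16 and *Osmr* by 3.42 ± 0.17 (adjusted p = 6.51e-06 and 3.05e-07). *Il6r*, the receptor that binds IL-6, rose by 0.96 ± 0.18 (adjusted p = 0.00195), with means of 5.64 with POG and 4.68 with DMSO that both lay under the lower quartile of all signals. *Il11ra1* rose by 0.60 ± 0.21 (adjusted p = 0.036), but did not pass without DMSO replicate 2, POG replicate 1 or POG replicate 2 (adjusted p = 0.113, 0.21 and 0.0707) or after quantile normalization or centring (0.0907 and 0.0688). *Lifr* had no named probe set and was not analysed here.

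Among the genes that carry the signal inside the cell the changes were small. Of 12 measured JAK, STAT and adaptor genes (23 listed) 3 were higher, 2 lower and 7 did not pass, with a median of 0.17. The share called was 41.7%, close to the 46.3% of all probe sets. *Stat3*, the main transcription factor of the pathway, had 13.42 and 13.41 with POG, against 12.82, 12.60 and 12.80 with DMSO, a rise of 0.68 ± 0.17 (adjusted p = 0.00953). *Jak1* was higher by 0.54 ± 0.19 and *Stat2* by 0.85 ± 0.26, while *Jak2* (-0.50 ± 0.17) and the adaptor *Gab2* (-0.91 ± 0.21) were lower. The adaptor *Shc1* (0.32, adjusted p = 0.158) and the kinase *Map2k1* (-0.37, adjusted p = 0.0989) did not pass. Without POG replicate 2 none (0) of the 12 passed in either direction, and *Stat3* did not pass without POG replicate 1 either (adjusted p = 0.0524 and 0.0537 without POG replicate 1 and 2). *Jak1* also did not pass without any one DMSO replicate, *Jak2* without DMSO replicate 1, DMSO replicate 3 or POG replicate 1, and *Stat2* without DMSO replicate 2 or 3.

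The feedback inhibitors split. *Socs3*, the inhibitor that STAT3 induces and that blocks signalling by *Il6st*, had 8.25 and 7.19 with POG, against 5.13, 4.61 and 4.93 with DMSO. *Socs2*, which restrains growth hormone signalling, had 7.04 and 6.83 with POG, against 9.29, 9.09 and 9.12 with DMSO. The groups were far apart for both and in opposite directions, with *Socs3* up by 2.83 ± 0.29 and *Socs2* at -2.23 ± 0.17 (adjusted p = 4.58e-05 and 6.22e-06). The *Socs3* signals with DMSO lay under the lower quartile of all signals, so the size of its rise may be understated. Of 8 measured inhibitors (17 listed) 4 were higher and 2 lower, against 26.7% and 19.6% of all probe sets. The STAT inhibitors *Pias1* (0.60), *Pias2* (0.68) and *Pias3* (0.73) were the other higher ones and the phosphatase *Ptpn1* (-0.96) the other lower one, and *Socs1* did not pass at -0.34 (adjusted p = 0.139). Without POG replicate 1, 2 inhibitors were higher, with *Pias1* and *Pias3* lost (adjusted p = 0.151 and 0.29). *Pias2* did not pass without POG replicate 2 (0.0646), and *Pias3* did not pass without DMSO replicate 2 or 3 (0.113 and 0.0863).

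**Figure D3:**
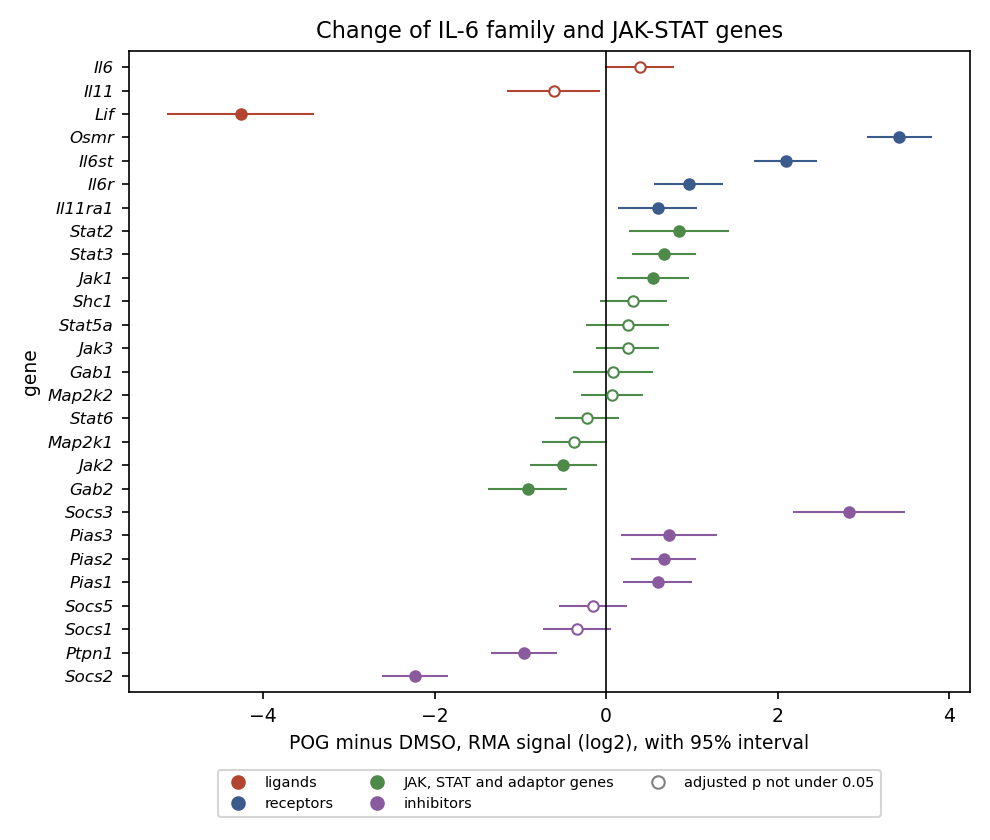
Change of the measured IL-6 family ligands, receptors, JAK, STAT and adaptor genes and inhibitors (x axis, POG minus DMSO, log2 RMA signal, point with 95% interval; y axis, genes). Open points did not pass at an adjusted p of 0.05. *Lif* at -4.26 lies alone on the far left, and the receptors *Osmr* (3.42) and *Il6st* (2.10) and the inhibitor *Socs3* (2.83) on the right.

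Of 27 measured genes known as STAT3 targets (40 listed) 15 were higher and 4 lower, with a median of 0.68, against 26.7% higher and 19.6% lower over all probe sets. The 15 include *Il6st*, *Osmr*, *Stat3* and *Socs3*, which were counted above as well. *Cebpd*, a transcription factor of the acute phase response, had 9.95 and 9.35 with POG, against 5.95, 6.58 and 6.55 with DMSO. *Lbp*, the lipopolysaccharide-binding protein, had 13.60 and 13.57 with POG, against 10.62, 10.56 and 10.85 with DMSO, and *Lcn2*, lipocalin-2, had 7.17 and 7.20 with POG, against 4.05, 4.48 and 4.16 with DMSO. All 3 acute phase genes were well separated between groups, at 3.29 ± 0.25, 2.91 ± 0.17 and 2.96 ± 0.19 (adjusted p = 5.47e-06, 1.04e-06 and 1.50e-06), with the *Lcn2* signals with DMSO under the lower quartile of all signals. *Klf5* (1.5), *Il4r* (1.25), *Hgf* (1.22), *Icam1* (1.01), *Bcl6* (0.99) and *Serpina3n* (0.68) were higher too. The *Serpina3n* means of both groups and the *Hgf* mean with DMSO lay under the lower quartile of all signals. By the methods' t-test after adjustment *Il4r*, *Hgf*, *Icam1*, *Bcl6* and *Serpina3n* did not pass (adjusted p from 0.0682 to 0.185). *Bcl3* (0.49) and *Myc* (0.31) did not pass, though *Bcl3* did with the replicate block (adjusted p = 0.0474). The 4 lower were *Junb* (-1.74), the angiogenic factor *Vegfa* (-1.49), cyclin D1 (*Ccnd1*, -0.53) and the kinase *Pim1* (-0.50). The *Pim1* means lay under the lower quartile in both groups. *Ccnd1* and *Pim1* did not pass by the methods' t-test after adjustment (adjusted p = 0.0578 and 0.0993). Only *Junb* and *Vegfa* of these 4 passed without DMSO replicate 2, DMSO replicate 3, POG replicate 1 or POG replicate 2, and *Ccnd1* also did not pass without DMSO replicate 1 (adjusted p = 0.0588). *Bcl6* did not pass without DMSO replicate 2 or POG replicate 1 (0.0532 and 0.145), *Serpina3n* without DMSO replicate 3 or POG replicate 2 (0.061 and 0.195), and *Il4r* without POG replicate 2 (0.0755). Targets of this kind also respond to other cytokines and to NF-kB, and no readout of STAT3 activity was available here.

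Of 25 measured factors that act on the *Il6* and *Lif* genes (37 listed) 4 were higher, 9 lower and 12 did not pass, with a median of -0.37. The share called was 52%, against 46.3% of all probe sets. The AP-1 subunit *Fosl1* had 8.85 and 8.72 with POG, against 10.52, 11.07 and 11.24 with DMSO. *Jun* had 10.49 on both POG arrays, against 12.10, 12.39 and 11.89 with DMSO. The AP-1 genes *Fosl1* (-2.16 ± 0.23), *Junb* (-1.74), *Jun* (-1.64 ± 0.19) and *Fosb* (-1.62) and the ETS factors *Ets1* (-1.80) and *Ets2* (-1.73 ± 0.20) were all lower (adjusted p from 4.93e-05 to 0.00102), while *Fos* (-0.37), *Jund* (-0.41) and *Fosl2* (-0.02) did not pass. *Fos* passed after quantile normalization (adjusted p = 0.0431). *Jund* passed after centring or quantile normalization (adjusted p = 0.0331 and 0.0387), in the fit of brighter probe sets (0.0331) and by the methods' t-test after adjustment (0.0376). Among NF-kB genes *Nfkb1* (-0.85 ± 0.21), *Nfkb2* (-1.16) and the inhibitor *Nfkbia* (-0.77) were lower and the subunit gene *Rela* did not pass at -0.45 ± 0.18 (adjusted p = 0.063). The C/EBP genes went up, *Cebpd* as given above and *Cebpb* by 0.94 ± 0.22 (adjusted p = 0.00656). *Hif1a*, the hypoxia factor (1.55 ± 0.18), and *Nr3c1*, the glucocorticoid receptor (0.53), were the other higher ones. By the methods' own test after adjustment, *Nfkb1*, *Nfkb2* and *Nfkbia* did not pass (adjusted p = 0.1, 0.182 and 0.0813). Nor did *Cebpb*, *Ets1* and *Fosb* by that test (adjusted p = 0.101, 0.0679 and 0.0797). *Cebpd*, *Hif1a*, *Nr3c1*, *Fosl1*, *Junb*, *Jun* and *Ets2* passed by it. *Creb1*, whose product binds the CRE motif, did not pass at 0.44 (adjusted p = 0.0522), but passed with array weights (0.0425), by the methods' t-test after adjustment (0.029) and among named probe sets only (0.049).

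Without POG replicate 2 the number of such factors higher was 2, with *Nr3c1* lost (adjusted p = 0.143), and *Cebpb*, *Nfkb1*, *Nfkb2* and *Nfkbia* did not pass (adjusted p = 0.0779, 0.0751, 0.158 and 0.0885). *Nr3c1* also did not pass without DMSO replicate 2, DMSO replicate 3 or POG replicate 1 (0.0787, 0.0642 and 0.0749) or after centring (0.0606). *Rela* passed with trend and robust moderation, with array weights, after centring and in the fit of brighter probe sets (adjusted p from 0.0194 to 0.0483; range over its alternatives 0.0194 to 0.303).

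The *Il6* mRNA is short-lived, and RNA-binding proteins set its decay. Of 9 measured genes of this group (13 listed) 3 were higher and 4 lower, against 26.7% higher and 19.6% lower over all probe sets. *Zfp36*, which encodes tristetraprolin, a protein that promotes decay of AU-rich mRNAs, had 6.82 and 6.81 with POG, against 8.35, 7.80 and 8.46 with DMSO. Its relative *Zfp36l1* had 11.35 and 11.29 with POG, against 9.57, 9.38 and 9.54 with DMSO. The relatives thus changed in opposite directions, at -1.39 ± 0.22 and 1.82 ± 0.17 (adjusted p = 0.000723 and 2.03e-05). *Zc3h12a*, which encodes the endonuclease regnase-1 that cuts *Il6* mRNA, was lower (-0.96 ± 0.22), as were *Zfp36l2* (-0.84 ± 0.17) and the kinase gene *Mapkapk2* (-0.66). *Tia1* (1.62 ± 0.29) and *Hnrnpd* (0.75) were higher, and *Elavl1* (0.12) and *Arid5a* (-0.28), which encode stabilising proteins, did not pass. By the methods' t-test after adjustment *Zfp36*, *Tia1*, *Zc3h12a* and *Hnrnpd* did not pass (adjusted p = 0.0571, 0.0976, 0.098 and 0.114). *Hnrnpd* did not pass without POG replicate 1 (adjusted p = 0.123) and *Mapkapk2* without POG replicate 2 (0.085).

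**Figure D4:**
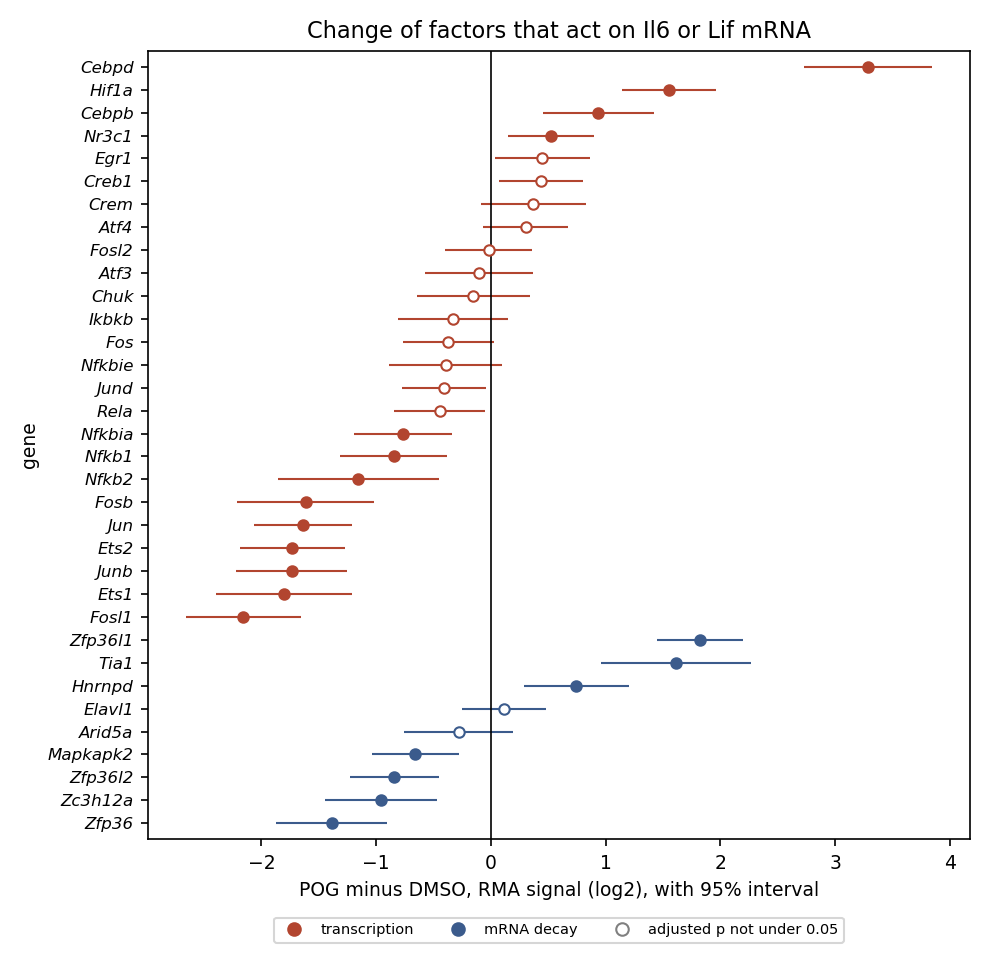
Change of the measured factors that act on transcription of *Il6* or *Lif* (red) and on decay of *Il6* mRNA (blue) (x axis, POG minus DMSO, log2 RMA signal, point with 95% interval; y axis, genes). Open points did not pass at an adjusted p of 0.05. *Cebpd* (3.29) stands at the upper right, and the AP-1 and ETS genes from *Fosb* (-1.62) to *Fosl1* (-2.16) at the lower left of the red group.

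Genes of inputs upstream of *Il6* and *Lif*, which are ligands, receptors and adaptors, also moved both ways. Of 18 measured IL-1, TNF and TGF-beta input genes (25 listed) 7 were higher and 8 lower, against 26.7% and 19.6% of all probe sets. *Il1rn*, which encodes the antagonist of the IL-1 receptor, had 17.03 and 16.80 with POG, against 9.23, 9.52 and 10.02 with DMSO, and the IL-1 receptor accessory gene *Il1rap* had 7.80 and 7.75 with POG, against 10.13, 10.18 and 10.20 with DMSO. An antagonist of IL-1 was thus higher while a receptor subunit was lower (7.33 ± 0.24 and -2.40 ± 0.16). *Il33* was higher (6.07 ± 0.24), and *Inhba* (-4.19 ± 0.24), which encodes an activin subunit, and the TGF-beta genes *Tgfb1* (-1.82), *Tgfb2* (-1.99) and *Tgfb3* (-2.51 ± 0.16) were lower. *Il1a* was lower (-0.87) at low signals, with means of 4.39 with POG and 5.26 with DMSO, and did not pass without POG replicate 2 (adjusted p = 0.125). The receptor genes *Tlr4* (1.13), *Tlr3* (0.60) and *Tnfrsf1a* (0.51) and the adaptor *Myd88* (0.77) were higher, and *Tnfrsf1b* was lower (-1.24). *Tnf*, *Il1b* and *Il1r1* had no named probe set and were not analysed here. The number higher was 4 without DMSO replicate 2 or POG replicate 1 and 3 without POG replicate 2. *Myd88* did not pass without POG replicate 2 (adjusted p = 0.0728). *Tlr4* was lost in all 3 cases (adjusted p = 0.0574 to 0.122), *Tlr3* in these 3 and without DMSO replicate 1 (0.0761 to 0.193), and *Tnfrsf1a* without any one DMSO replicate or POG replicate 1 (0.0775 to 0.334).

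Beside other SASP-related genes *Lif* was among the large decreases and *Il6* among those that did not pass. Of 40 measured cytokines, chemokines, growth factors and related genes (53 listed, without *Il6* and *Lif*) 14 were higher, 17 lower and 9 did not pass, with a median of -0.22, against 26.7% higher and 19.6% lower over all probe sets. *Plaur*, the urokinase receptor (-4.27), *Fgf2* (-4.42) and *Ptgs2*, the inducible cyclooxygenase (-5.68 ± 0.17), fell as far as *Lif* or farther. *Cxcl12* (4.60 ± 0.17), *Igf1* (4.51 ± 0.18) and the glycoprotein hormone *Stc1* (6.29 ± 0.25) rose. *Il7* fell by 1.94 on the log2 scale, while *Il15* was higher by 1.26 and did not pass without POG replicate 2 (adjusted p = 0.0697). The list, like the others, was drawn up with earlier results of these data known.

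Markers of the labelled cells and of other cells were read beside these results. The collagen gene *Col1a1* had 19.31 and 19.18 with POG, against 19.30, 19.47 and 19.39 with DMSO, and *Thy1*, a mesenchymal surface marker, averaged 16.65 with POG and 16.59 with DMSO. *Scx*, the tendon transcription factor, averaged 5.77 with POG and 6.08 with DMSO, under the lower quartile of all signals, and *Tnmd* and *Mkx* had no named probe set. Of 17 measured tendon and progenitor markers (21 listed) 5 were higher (29.4%) and 3 lower (17.6%). These shares were near the 26.7% and 19.6% of all probe sets. *Dcn* (8.24), *Fmod* (6.57), *Lum* (9.12), *Thbs4* (2.68) and, at signals under the lower quartile, *Comp* (0.96) rose. The *Lum* mean with DMSO, 5.96, lay under the lower quartile as well, so the size of its rise may be understated. *Egr2* (-1.67) and the surface markers *Cd44* (-1.26) and *Itgb1* (-0.78) fell. *Comp*, *Cd44* and *Itgb1* were not among the named genes followed through the alternatives. Of 12 measured smooth muscle and pericyte markers (15 listed) 10 were lower, against 19.6% of all probe sets, and 0 higher. Their summed log2 signal was 127.84 and 124.94 on the POG arrays, against 164.28 to 165.08 on the DMSO arrays. *Mcam*, listed here, encodes CD146, which the study also used to mark endogenous rTSPCs in injured tendons. *Mcam* (-6.63), *Myh11* (-5.91), *Actg2* (-5.58), *Myocd* (-4.47), *Cnn1* (-3.84) and *Acta2* (-2.38) fell together with *Lif*. Their part in the *Lif* result was not tested. In these bulk samples, fewer cells of a type and less RNA per cell cannot be told apart.

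All 5 measured leukocyte and macrophage markers of 17 listed were higher in POG-treated cells, against 26.7% of all probe sets: *Lyz2* (2.06), *Cd53* (2.31), *Cd68* (1.52), *Fcer1g* (1.22) and *Cd14* (1.09), with a summed log2 signal of 32.97 and 35.24 on the POG arrays, against 25 to 27.17 on the DMSO arrays. Except for *Cd14*, their DMSO means, from 3.55 to 5.18, were under the lower quartile of all signals, and the defining markers *Ptprc*, *Itgam*, *Csf1r* and *Tyrobp* had no named probe set. Their part in the *Il6* values was not tested. Without POG replicate 2, *Fcer1g* and *Cd14* did not pass (adjusted p = 0.0867 and 0.167) and 3 markers were higher; *Cd14* did not pass without DMSO replicate 2 either (0.0628). Of 3 measured endothelial markers (9 listed) *Kdr* was higher (1.85) and *Cd34* lower (-1.39), with 2 lower without DMSO replicate 2. *Map2* (1.41) and *S100b* (1.18) were the 2 higher of 3 measured Schwann cell and neural markers (10 listed). Over all probe sets 26.7% were higher and 19.6% lower. Beside these shares, counts from so few endothelial or neural markers say little about a cell type. *Cldn1* (1.51), the only measured epithelial marker of 8 listed, was higher, but did not pass without DMSO replicate 2 or POG replicate 2 (adjusted p = 0.0556 and 0.11).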

How the data were processed

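RNA from rTSPCs at P12 (2 POG and 3 DMSO arrays) had been hybridised to an array that the methods name Affymetrix Rat Transcriptome Array 1.0. The deposited values are log2 signals per probe set that the authors made by robust multi-array average (RMA) with default settings and global scaling; the RMA version and the rule by which the 10141 probe sets were kept are not given in the sources used here. Such signals compress differences near background, and no detection calls were used; the number of arrays limits the precision. A second deposited table held identical values. Gene symbols came from the platform annotation, which gave 7240 probe sets 1 symbol and left 2901 unnamed; the highest probe set was used for 4 genes with several.

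Groups were taken from the labels. POG was compared with DMSO by limma 3.58.1 (lmFit, eBayes) in R 4.3.3, with p-values adjusted by Benjamini-Hochberg across the whole table and called under 0.05, and by exact permutation over arrays in Python 3.11.15. The script was tested on simulated data. Deviations from the group mean hardly correlated between same-numbered POG and DMSO arrays (0.0042 and 0.0052). Those of the 2 POG arrays mirror each other, so the correlations are not separate checks and cannot settle whether arrays were paired. Alternatives were quantile normalization, centring on array medians, brighter probe sets only (mean at least 8.45), trend and robust moderation, array weights, the methods' t-test, a replicate block, omission of each array in turn, the second table and named probe sets only.

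The genes and lists (ligands, receptors, transducers, inhibitors, STAT3 targets, transcription and decay factors, IL-1 and TNF inputs, other SASP factors and cell type markers) were chosen with earlier results of these data known. Named were all measured ligands and receptors, up to 5 members of each other list with the smallest p, a few fixed genes (*Socs3*, *Stat3*, *Jak1*, *Rela*, *Nfkb1*, *Cebpb*, *Il1rn*, *Ptgs2*) and the 5 genes most like *Il6* and *Lif*. The members with the smallest p were taken only from those that passed and whose groups did not overlap. Any further gene in the text was picked with its values in view. Rat promoter sequences were those of RefSeq (GRCr8).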

Additional observations from a re-analysis of the deposited data

How the results depend on the processing

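*Lif* kept its direction and passed under all 14 alternatives that gave a value (-4.62 to -3.80, p from 1.71e-08 to 0.0402); it was not among the brighter probe sets. *Il6* stayed positive and did not pass under 15 alternatives (0.29 to 0.50, p from 0.0606 to 0.38), and was 0.31 after quantile normalization and 0.31 after centring. The difference between their changes ranged from -4.91 to -4.24 when 1 array was left out. The number of probe sets higher with POG was 1560 among the brighter ones and 1064 by the methods' t-test after adjustment, and 1586 to 2480 with 1 array left out; the number lower was 1014 by that t-test and 1314 to 1931 with 1 array left out. Both lowest leave-one-out counts came without POG replicate 2. Of the calls, 57.7% were higher with POG, against 49.8% after centring and 51.3% after quantile normalization. With the replicate number as a block, 4193 probe sets passed, *Il6* was 0.45 (adjusted p = 0.109) and *Lif* -4.37 (7.02e-06); the numbers were not shown to pair the arrays. Of 115 other named genes 94 passed, against 46.3% of all probe sets. Many of them were named because they passed, so this count is no result about them. Of the 94, 52 passed under every alternative that gave a value, 42 did not under at least 1, and 0 reversed. Of the 21 that did not pass, 8 passed under at least 1 alternative. *Col1a1* came out at 7.82e-16 after quantile normalization, which is no difference within rounding and not a change of sign. *Thy1* changed sign, at -0.023 after centring and -0.027 to 0.153 with 1 array left out, the lowest without POG replicate 1. *Fosl2* changed sign too, at 0.05 with the block and -0.065 to 0.05 with 1 array left out. The cause of these shifts was not tested. Signals under the lower quartile, such as *Lif* with POG, limit how large a fall can be measured.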
